A study of Mus musculus with 7 samples.

Results

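Potassium, sodium and calcium channel genes were examined in sorted mouse mammary cells. The set was chosen by gene symbol: pore and auxiliary subunits named Kcn, Scn, Scnn1 or Cacn with a family letter and number. It held 109 genes of the 17096 that had a probe set (a group of array probes read as 1 value) naming a single gene. Where a gene had several probe sets, that with the highest mean log2 intensity stood for it. The 7 Affymetrix arrays held 3 kinds of cell. Adult luminal cells (2 arrays) were YFP+ cells of K8CREERT2/RosaYFP mice 8 weeks after tamoxifen, and adult basal cells (2 arrays) were YFP+ cells of K5CREERT2/RosaYFP mice at the same time. The keratin 8 or keratin 5 promoter drove the Cre, so each group holds the cells that this promoter marked. Embryonic cells (3 arrays) were high in CD49f and in the GFP of Lgr5-IRES-GFP female embryos at embryonic day 14, each array being a pool from a litter. They came from 2000, 2000 and 813 sorted cells. The adult arrays are marked as reanalysed, and their tissue label reads as embryonic, against their titles and sources, which were followed here. Whether adult replicates were different mice is not stated. P-values then reflect array-to-array spread, which may be technical, and the number of arrays limits every value.

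Ion channels are membrane proteins built from pore-forming subunits, which pass the ion, and auxiliary subunits, which set traffic and gating. In epithelium, the epithelial sodium channel and potassium channels carry salt across the cell layer. In contractile cells, L-type calcium channels admit the calcium that starts contraction and calcium-activated potassium channels oppose it. The mammary gland has both kinds of cell: luminal cells line the ducts and make milk, and basal (myoepithelial) cells contract around them.

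The labelled lineages were checked first. Of 18 measured luminal markers, 13 were higher in luminal cells and none in basal cells, and of 15 basal markers 12 were higher in basal cells. The basal keratin gene Krt5 had log2 intensities of 9.13 and 9.56 on the luminal arrays and 12.03 and 12.15 on the basal arrays. Background was set at a log2 intensity of 4.59, below which lay 95% of 83 probe sets for olfactory and vomeronasal receptors. By this level 14 of the 15 basal markers were above background in luminal cells, and 17 of the 18 luminal markers in basal cells. Of the 109 channel genes, 69 (63.3%) were above background in at least 1 group, against 72.0% of all genes. A second level of 5.72, from genes restricted to other organs, was chosen after seeing the data. Above it lay 27 channel genes (24.8%), against 52.9% of all genes. By this second level most channel genes were dim, and a small difference in a dim gene does not show unchanged expression. Embryonic levels lay near the mean of the adult arrays. On embryonic replicates 1 and 2, 44 of the 109 genes (40.4%) had identical values, as had 37.6% of all probe sets. Comparisons with embryonic cells accordingly describe the deposited table, and the adult comparison comes first.

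Between adult luminal and basal cells, 7 of 109 channel genes (6.42%) passed the test, by a limma adjusted p under 0.05 over all 17096 genes and a difference of at least 2-fold. Over all genes 5.49% passed, so the share of channel genes was near that background. Higher in basal cells were 5: the sodium channel gene Scn7a, the calcium channel genes Cacna1c and Cacna2d1, and the potassium channel genes Kcnmb1 and Kcnq5. The background on that side was 2.63%. Higher in luminal cells were Kcnn4, a calcium-activated potassium channel gene, and Scnn1a, a subunit gene of the epithelial sodium channel, with a background of 2.87%. Values of both luminal arrays lay on one side of both basal arrays in 59 of the 109 channel genes, or 54.1%, against 59.2% of all genes. The median log2 difference, luminal minus basal, was -0.09 over the channel genes and 0.02 over all genes. The number of genes that passed rested on each adult array. Without luminal replicate 1 it was 1 (Scn7a), without luminal replicate 2 it was 3 (Scn7a, Cacna2d1 and Kcne3), without basal replicate 1 it was 3 (Scn7a, Cacna2d1 and Kcnmb1) and without basal replicate 2 it was 4 (Scn7a, Cacna2d1, Kcnmb1 and Cacna1g). Each of these fits left a group with 1 array, which was assumed to vary like the others.

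**Figure D1:**
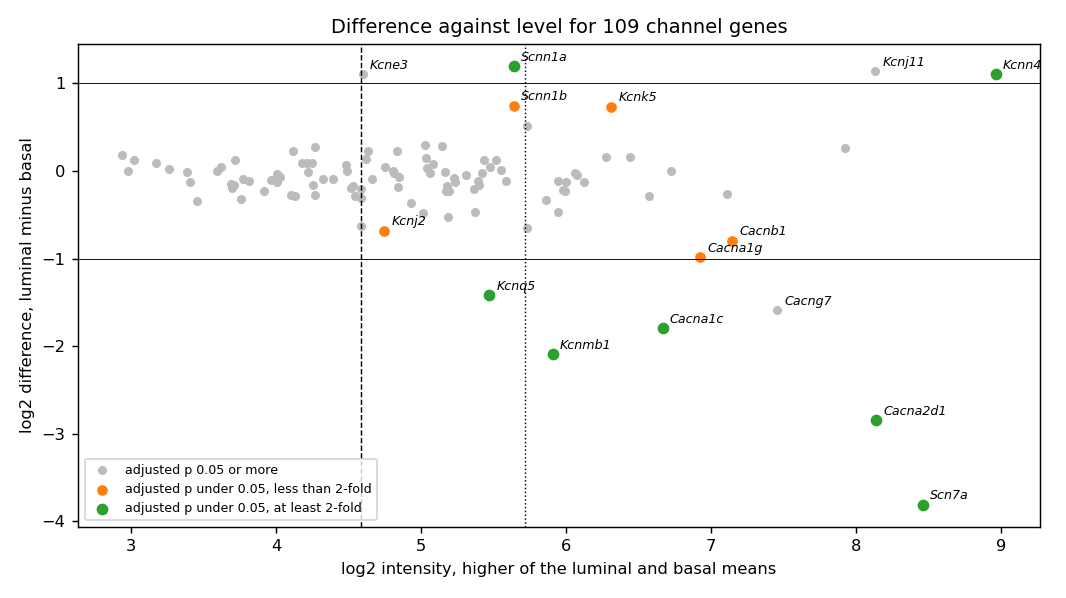
Log2 difference, luminal minus basal, of each of the 109 channel genes against the higher of its luminal and basal mean log2 intensities. Dashed and dotted vertical lines mark the background levels of 4.59 and 5.72, and horizontal lines mark 2-fold. Scn7a and Cacna2d1 lie farthest down, at -3.81 and -2.85, while most genes lie near 0.

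Scn7a showed the widest difference of the set. It encodes the channel known as Nax, a relative of voltage-gated sodium channels that responds to the sodium level outside the cell. Its log2 intensity was 8.46 on both basal arrays and 4.23 and 5.06 on the luminal arrays. The groups did not overlap, and a luminal array lay below background. The difference was -3.81 ± 0.24 (SE, n = 2 and 2 arrays, limma adjusted p = 0.00367), or 14.1-fold on the fitted scale. That SE pools the spread of all 7 arrays, as do the others given here. For Scn7a the embryonic arrays shared an identical value (SD 0), while the luminal SD was 0.58. All 3 probe sets of Scn7a pointed the same way, with differences of -3.81, -1.71 and -2.56, and each passed when probe sets were tested on their own. Scn7a also passed without any 1 of the 7 arrays, with differences from -4.23 to -3.40.

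Other sodium channel genes stayed dim. Scn7a lies beside Scn9a and Scn1a on its chromosome, with Scn2a and Scn3a a few genes away. These 4 encode pore subunits known from nerve cells. Mean log2 intensity in basal cells was 2.75 for Scn9a, 4.22 for Scn1a, 4.587 for Scn2a and 3.77 for Scn3a, none above background, with Scn2a almost at it. Their differences ran from -0.21 (Scn2a) to 0.19 (Scn9a), and none passed. Of the 8 pore genes measured, Scn8a (5.13 and 5.40 in luminal, 5.41 and 5.21 in basal cells) and Scn10a were the others above background in an adult lineage. The beta subunit gene Scn2b, which encodes a cell adhesion protein bound to the pore, had 5.78 and 5.75 in luminal and 5.88 and 6.11 in basal cells, and its -0.22 missed the threshold (limma adjusted p = 0.190).

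Subunits of the epithelial sodium channel were dim, and Scnn1a was the member that passed. This channel takes up sodium at the apical face of epithelia and is built from alpha, beta and gamma subunits. Scnn1a, the alpha subunit gene, had log2 intensities of 5.82 and 5.46 in luminal and 4.30 and 4.58 in basal cells, a difference of 1.20 ± 0.25 (SE, n = 2 and 2, limma adjusted p = 0.0315). Both basal arrays lay below background, so luminal cells were at least 2.07-fold higher. Scnn1b, the beta subunit gene, had 5.65 and 5.63 in luminal and 4.86 and 4.93 in basal cells. Its arrays were close within each group, and the difference of 0.74 ± 0.08 had a limma adjusted p of 0.00895 but was under 2-fold. The embryonic arrays shared an identical value for Scnn1b (SD 0), which also enters that error. Scnn1g, the gamma subunit gene, differed by -0.36 and did not pass (limma adjusted p = 0.296). The luminal means of Scnn1a and Scnn1b, both 5.64, lay below the higher background level of 5.72.

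Calcium channel genes that passed were all higher in basal cells. Cacna2d1 encodes an alpha-2-delta subunit, which carries the pore to the membrane and binds gabapentin. It had 7.97 and 8.31 in basal and 5.35 and 5.24 in luminal cells, a difference of -2.85 ± 0.22 (SE, n = 2 and 2, limma adjusted p = 0.00514; 7.19-fold). The second of its 3 probe sets differed by -1.51 (limma adjusted p = 0.0507) and the dimmest by -0.57 (limma adjusted p = 0.0663), and neither passed on its own. Cacna1c encodes the L-type pore of smooth and heart muscle. It had 6.70 and 6.63 in basal and 4.78 and 4.96 in luminal cells, with no overlap and a difference of -1.79 ± 0.33 (limma adjusted p = 0.0251). Both Cacna1c probe sets passed on their own, at -1.79 and -1.17.

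Cacna1g, Cacnb1 and Cacng7 also had higher values on both basal arrays but did not pass. Cacna1g, a T-type pore gene, had 7.10 and 6.75 in basal and 5.83 and 6.05 in luminal cells. Its difference of -0.98 ± 0.17 (limma adjusted p = 0.0208) fell just short of 2-fold, and after quantile normalization it passed at -1.03. Cacnb1 encodes a beta subunit, which docks on the inner face of the pore. It had 7.21 and 7.08 in basal and 6.32 and 6.38 in luminal cells, and its -0.80 ± 0.12 (limma adjusted p = 0.0176) was also under 2-fold. The other Cacnb1 probe sets differed by -0.68 (limma adjusted p = 0.0725) and -0.12 (limma adjusted p = 0.647). Cacng7, a gamma subunit gene, had 7.004 and 7.91 in basal and 5.90 and 5.83 in luminal cells. The basal arrays were far apart (SD 0.64), and so were the embryonic arrays (7.17, 6.59 and 5.98, SD 0.60), which enter the same error. With all 7 arrays fitted Cacng7 failed the test, at -1.59 ± 0.43 (limma adjusted p = 0.0597). In the 4 adult arrays alone, with the same basal pair, it passed (limma adjusted p = 0.0209). Cacng8 (-0.26) and the pore gene Cacna1a (-0.04) did not pass. For the pore gene Cacna1d the probe sets disagreed: the brighter differed by 0.16 and the other by -0.83 (limma adjusted p = 0.0139, under 2-fold), so no direction is given. The skeletal muscle pore gene Cacna1s, with Cacna1b and Cacna1e of nerve cells, lay at or below background in both lineages.

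Among potassium channel genes, the beta-1 subunit of the large-conductance calcium-activated channel stood higher in basal cells. That subunit, encoded by Kcnmb1, raises the channel's calcium sensitivity and is known from smooth muscle. Kcnmb1 had 5.58 and 6.23 in basal and 3.86 and 3.76 in luminal cells, with a difference of -2.10 ± 0.25 (SE, n = 2 and 2, limma adjusted p = 0.0115). Both luminal arrays lay below background, so basal cells were at least 2.50-fold higher. Its other probe set differed by -0.89, under 2-fold, and did not pass on its own. Kcnma1, the pore gene that Kcnmb1 works with, had 5.91 and 5.55 in luminal and 4.94 and 5.50 in basal cells. The 2 lineages came close there, and its 0.52 ± 0.28 did not pass (limma adjusted p = 0.272). The other beta subunit genes, Kcnmb2 and Kcnmb4, did not pass either.

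The voltage-gated pore gene Kcnq5, of the family that carries the slow M-current, was higher in basal cells too. It had 5.52 and 5.42 in basal and 3.79 and 4.31 in luminal cells, a difference of -1.42 ± 0.26 (SE, n = 2 and 2, limma adjusted p = 0.0251). Both luminal arrays lay below background, and the bound was at least 1.85-fold. Its other probe sets differed by -0.76 and -0.85 and neither passed on its own, and its basal mean of 5.47 lay below the higher background level of 5.72. Kcnq5 was the 1 of 28 voltage-gated pore genes that passed, and the median of these 28 was -0.06. Kcnh3 (-0.0049), Kcnh1 (-0.28), Kcnd3 (-0.12) and Kcnc1 (-0.02) were above background and did not pass. Kcnq1, of the same family as Kcnq5, differed by -0.0016.

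On the luminal side, Kcnn4 passed. It encodes the intermediate-conductance calcium-activated channel, known from secretory epithelia and blood cells. Its log2 intensity was 9.08 and 8.85 in luminal and 7.96 and 7.76 in basal cells, so it was well above background in both. The difference was 1.11 ± 0.20 (SE, n = 2 and 2, limma adjusted p = 0.0252; 2.15-fold), and its other probe set differed by 1.37 and passed on its own. With array weights, which rate arrays by their scatter, Kcnn4 did not pass (limma adjusted p = 0.0762). Both luminal arrays had a weight of 0.696 and both basal arrays 0.519. The 2 arrays of a pair lie equally far from their mean, so weights could not rate an adult array apart from its replicate. Within a group, weights differed only among the embryonic arrays (3.91, 8.24 and 0.238). The small-conductance relatives Kcnn1 (-0.03), Kcnn2 (0.28) and Kcnn3 (0.16) did not pass.

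Other potassium channel genes differed less or less evenly. Kcnj11, the pore gene of the ATP-sensitive channel, had 7.84 and 8.43 in luminal and 6.95 and 7.04 in basal cells. The groups did not overlap, but its 1.14 ± 0.31 did not pass (limma adjusted p = 0.0627); it did in the 4 adult arrays alone (limma adjusted p = 0.0215). Abcc8, which encodes a regulatory subunit of that channel, differed by 0.83 (limma adjusted p = 0.0730). Kcnk5, an acid-sensitive tandem-pore channel gene, had 6.32 and 6.30 in luminal and 5.53 and 5.63 in basal cells, and its 0.73 ± 0.13 (limma adjusted p = 0.0224) was under 2-fold. Kcnk1, another tandem-pore gene, differed by 0.26 and did not pass. The inward rectifier gene Kcnj2 had 4.66 and 4.83 in basal and 3.94 and 4.19 in luminal cells. Both luminal arrays lay below background, so that basal cells were at least 1.12-fold higher (limma adjusted p = 0.0413), and the size beyond that bound was not measured. Kcne3 encodes an auxiliary subunit of Kcnq1 channels. It had 5.40 and 3.79 in luminal and 3.57 and 3.41 in basal cells, so that 1 luminal array lay above background and the other 3 adult arrays below it, and it did not pass (limma adjusted p = 0.176). The auxiliary gene Kcne4 (-0.47) did not pass.

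**Figure D2:**
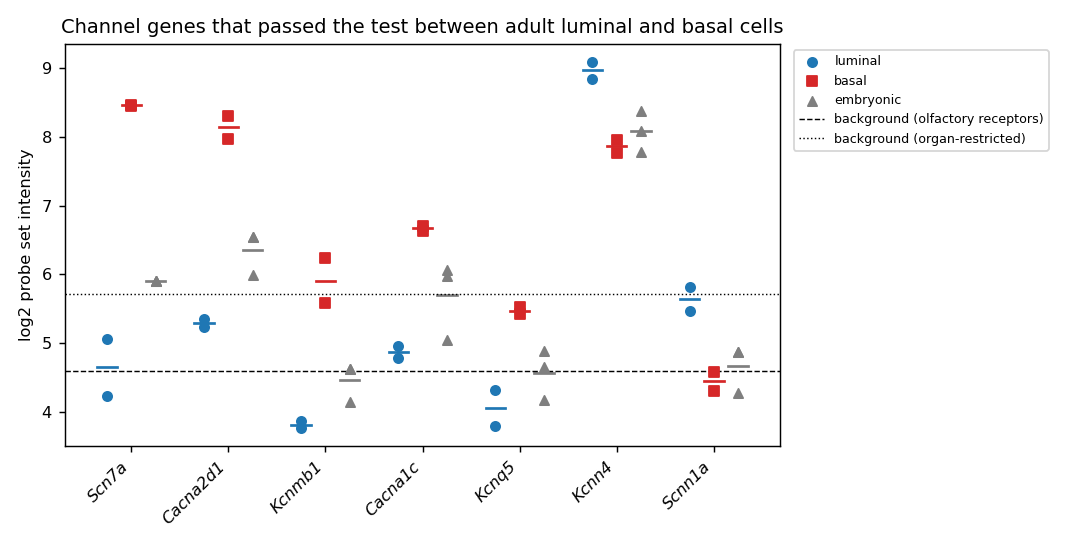
Log2 probe set intensity of the 7 channel genes that passed, with 1 point per array and a bar for each group mean, for adult luminal, adult basal and embryonic cells. Levels are to be compared within a gene. Basal points lie above luminal points for Scn7a, Cacna2d1, Kcnmb1, Cacna1c and Kcnq5 and below them for Kcnn4 and Scnn1a, while embryonic means lie between the adult means.

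No role held more than 1 gene that passed between the adult lineages. Medians of luminal minus basal were -0.26 for 13 calcium auxiliary genes, -0.09 for 9 calcium pore genes, -0.07 for 8 sodium pore genes and -0.22 for 3 sodium beta genes. They were -0.07 for 15 inward rectifier genes, -0.13 for 9 tandem-pore genes and -0.09 for 14 potassium auxiliary genes. The calcium- or sodium-activated potassium channel genes had a median of 0.23 over 7 genes and the epithelial sodium channel genes one of 0.74 over 3. Of the 62 genes above background in an adult lineage that did not pass, 50 differed by less than 0.5. The 40 genes at or below background in both differed by -0.34 to 0.28.

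**Figure D3:**
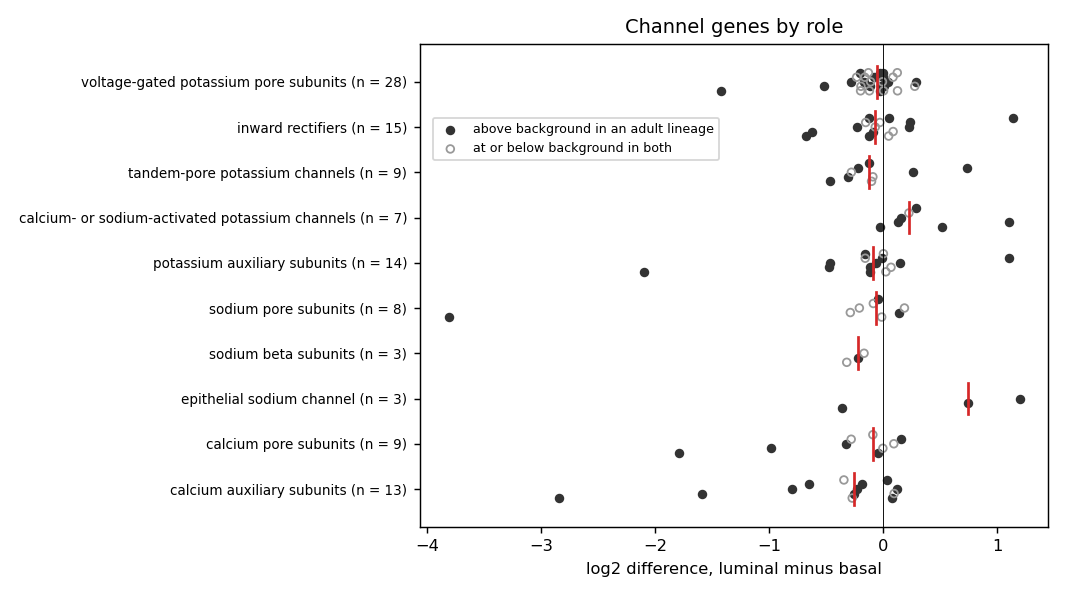
Log2 difference, luminal minus basal, of each channel gene by role, with filled points for genes above the background of 4.59 in an adult lineage, open points for the rest and a red bar for the median. Medians lie between -0.26 and 0.23 except for the 3 epithelial sodium channel genes, at 0.74.

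Sequences before the start sites of 4 genes that passed are shown, so that the promoters of genes higher in basal cells (Scn7a, Cacna2d1, Kcnmb1) can be read beside one of a gene higher in luminal cells (Kcnn4). Each is the 250 bases before a start listed in the RefSeq promoter table on GRCm38.p6: Scn7a chr2:66784911-66785160 (minus strand), Cacna2d1 chr5:15934441-15934690 (plus), Kcnmb1 chr11:33962763-33963012 (plus) and Kcnn4 chr7:24370013-24370262 (plus). Capitals mark matches on either strand to the TATA box (TATAAA), the GC box (GGGCGG), the AP-1 motif (TGANTCA), an E-box (CAGGTG), the muscle motif MCAT (CATTCC) or the CArG box of serum response factor.
Scn7a: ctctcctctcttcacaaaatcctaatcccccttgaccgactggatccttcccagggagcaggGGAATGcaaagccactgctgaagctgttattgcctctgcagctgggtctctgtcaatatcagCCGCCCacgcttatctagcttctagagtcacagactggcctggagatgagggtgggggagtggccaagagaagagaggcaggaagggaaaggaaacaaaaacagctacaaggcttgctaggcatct
Cacna2d1: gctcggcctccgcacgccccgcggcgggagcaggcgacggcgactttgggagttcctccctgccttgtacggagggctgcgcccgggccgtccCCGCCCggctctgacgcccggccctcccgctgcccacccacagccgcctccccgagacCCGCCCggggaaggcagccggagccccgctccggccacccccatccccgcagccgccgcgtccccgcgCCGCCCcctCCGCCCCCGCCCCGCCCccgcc
Kcnmb1: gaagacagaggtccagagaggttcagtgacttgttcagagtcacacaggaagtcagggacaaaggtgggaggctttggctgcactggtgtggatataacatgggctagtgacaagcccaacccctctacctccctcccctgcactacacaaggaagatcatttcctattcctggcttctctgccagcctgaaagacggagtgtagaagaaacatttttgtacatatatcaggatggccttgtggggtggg
Kcnn4: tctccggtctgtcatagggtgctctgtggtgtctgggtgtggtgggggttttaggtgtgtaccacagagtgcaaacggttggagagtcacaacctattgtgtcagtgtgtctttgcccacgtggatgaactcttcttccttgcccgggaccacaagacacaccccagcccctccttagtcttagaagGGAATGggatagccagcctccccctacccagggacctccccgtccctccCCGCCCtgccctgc
The listed start was the outer end of the gene for Scn7a, but lay 427 bases inside the annotated gene for Cacna2d1, 437 for Kcnn4 and 58 for Kcnmb1, so the Cacna2d1 and Kcnn4 windows lie within the gene and the Kcnmb1 window partly so.
The Cacna2d1 window was 82.4% G or C, against a median of 52.4% over 32851 RefSeq windows, and held 6 GC box matches, of which the last pair overlapped by a base. Scn7a (53.2% G or C) and Kcnn4 (58.8%) each had 1 GC box match and 1 MCAT match, and Kcnmb1 (50.8%) had none of the 6 motifs. The windows of Cacna1c, at the most upstream of 3 listed starts (975 bases inside the gene), and of Kcnq5, at the most upstream of 2, had none either. Among all windows, 32.7% held a GC box, 12.6% an MCAT motif, 12.4% TATAAA, 17.2% the E-box, 6.75% AP-1 and 1.47% a CArG box. These are matches of letters, and an empty window says nothing of a factor. Of the 109 genes, 84 had an entry in the promoter table.

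Other genes that handle ions or bind these channels came from 3 lists of known genes. Among 27 measured channel partners and regulators, luminal cells had 5 at a higher level and basal cells 2 (median 0.31). Over all genes, 2.87% passed as higher in luminal and 2.63% as higher in basal cells. Prss8, a membrane protease that activates the epithelial sodium channel, had 7.72 and 7.76 in luminal and 5.87 and 6.41 in basal cells (1.603 ± 0.28, limma adjusted p = 0.0221). St14, which encodes the protease matriptase, had a difference of 1.03 ± 0.16 and Wnk4, a kinase gene of salt transport, one of 1.48 ± 0.34. Fgf12 and Fgf13, which encode intracellular partners of sodium channel pores, were higher in luminal cells, Fgf13 by 1.19 and Fgf12, below background on both basal arrays, at least 1.48-fold. Stac2 and Stac encode adaptors of L-type calcium channels. Stac2 had 8.91 and 8.78 in basal and 6.90 and 7.002 in luminal cells (-1.90 ± 0.28, limma adjusted p = 0.0166). Stac, with both luminal arrays below background, was at least 2.19-fold higher in basal cells. The basal mean of Stac, 5.717, also lay just below the level of 5.72. Gem, an inhibitor of L-type channels, had 8.38 and 8.56 in basal and 4.62 and 5.46 in luminal cells, but its -3.43 ± 0.91 did not pass (limma adjusted p = 0.0581). Lrrc26 encodes a partner of the large-conductance potassium channel, and its 0.87 ± 0.12 (limma adjusted p = 0.0147) was under 2-fold.

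Of 34 measured genes of chloride channels, ion pumps and related transport, luminal cells had 4 at a higher level and basal cells 3 (median -0.07). The shares over all genes were 2.87% and 2.63%. Slc12a2, the sodium, potassium and chloride cotransporter gene of secretory epithelia, had 9.84 and 10.22 in luminal and 9.05 and 8.87 in basal cells (1.07 ± 0.20, limma adjusted p = 0.0250). The sodium pump beta subunit genes went in opposite directions, with Atp1b1 higher in luminal (1.14 ± 0.26) and Atp1b2 in basal cells (-1.33 ± 0.32). Clcn3 (1.40) was also higher in luminal cells, as was Clca1, which lay below background on both basal arrays and was at least 1.51-fold higher. Fxyd1, a regulator of the sodium pump (-1.74), and Lrrc8c, a subunit of volume-regulated anion channels (-1.33), were higher in basal cells. Of 28 measured TRP, Piezo, Orai, store and related channel genes, Trpv4, a channel opened by swelling and warmth, was higher in basal cells (-1.43 ± 0.22, limma adjusted p = 0.0172). Trpc6 passed on the luminal side but was below background in both lineages. Orai1 (0.79, limma adjusted p = 0.0491) and Itpr3 (0.71, limma adjusted p = 0.0385) were under 2-fold, and Piezo1 (0.07) had a limma adjusted p of 0.861.

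**Figure D4:**
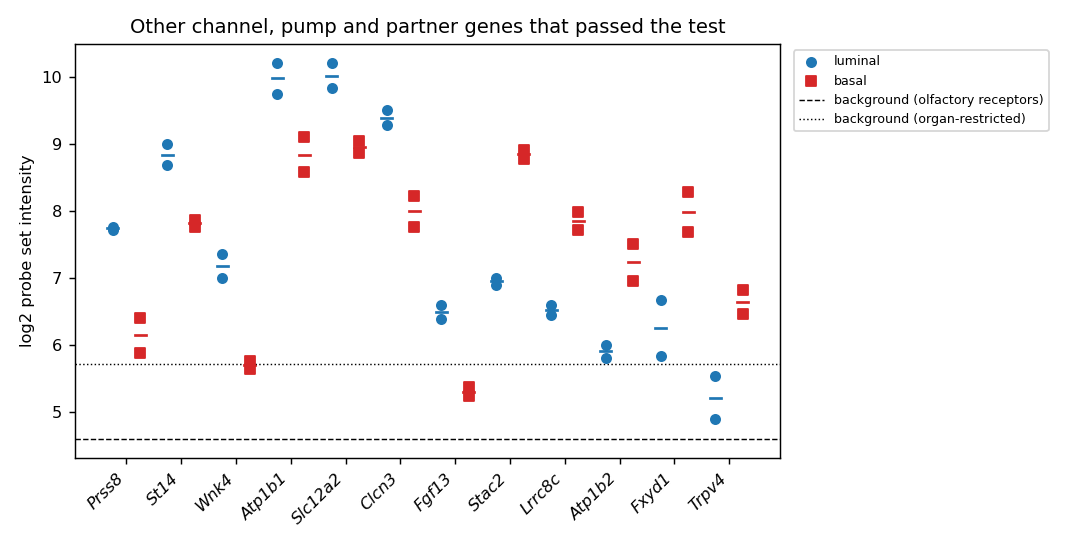
Log2 probe set intensity of 12 other channel, pump, transporter and partner genes that passed the test, with 1 point per adult array and a bar for each group mean. Levels are to be compared within a gene. Luminal points lie above basal points from Prss8 to Fgf13 and below them from Stac2 to Trpv4.

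Markers of other cells also differed between the adult arrays, beside the genes higher in basal cells. In sorted bulk cells, fewer cells of a type and less RNA per cell cannot be told apart. Sums are given as the log2 of each list's summed intensity on an array. Of 8 measured pericyte and vascular smooth muscle markers, Mcam passed (-1.43, higher in basal cells) and 7 did not, among them Rgs5 at -1.22 (median -0.52, sums of 9.58 to 9.75 in luminal and 9.43 to 10.03 in basal cells). None of 13 endothelial markers passed, with a median of -1.25 and sums of 8.90 to 9.69 in luminal and 10.22 to 10.92 in basal cells. The defining endothelial gene Pecam1 had 6.09 and 7.29 in luminal and 7.95 and 8.69 in basal cells. Basal cells had higher levels of 4 of 16 fibroblast markers (median -0.91, sums of 11.80 to 12.48 and 13.04 to 13.31). Over all genes, 2.63% passed as higher in basal cells.

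Of 9 Schwann cell and melanocyte markers Ngfr was higher in basal cells (-1.13). Their sums were 9.01 to 9.16 in luminal and 9.34 to 9.68 in basal cells, and 4 of the 9 were above background, while Dct, Tyr, Foxd3 and S100b were below it in both. None of 11 neuron markers passed, 6 were above background, and their sums were 8.153 to 8.202 in luminal and 8.56 to 8.57 in basal cells. None of 12 skeletal muscle markers passed; 6 were above background and 0 above the level of 5.72 (sums of 8.23 to 8.26 and 8.31 to 8.36). None of 13 leukocyte, 4 adipocyte or 4 erythroid markers passed. Sums in luminal and basal cells were 9.04 to 9.52 and 9.64 to 9.88 for leukocyte, 7.08 to 7.86 and 8.201 to 8.62 for adipocyte, and 11.83 to 12.14 and 11.30 to 11.86 for erythroid markers. Between basal replicates, 2 minus 1, the median was 0.74 for endothelial, 0.55 for pericyte and 0.38 for fibroblast markers, and the value was 0.65 for Kcnmb1, 0.34 for Cacna2d1, -0.08 for Cacna1c, -0.11 for Kcnq5 and -0.01 for Scn7a. Between luminal replicates the medians were 0.64, 0.10 and 0.43, and the values -0.10 for Kcnmb1, -0.12 for Cacna2d1, 0.18 for Cacna1c, 0.53 for Kcnq5 and 0.82 for Scn7a. For the 15 basal markers the median, replicate 2 minus 1, was 0.11 between basal and 0.25 between luminal replicates. The part of any of these cell types in the channel results was not tested.

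In the embryonic columns channel genes sat close to the adult mean. The embryonic minus adult mean lay within 0.1 for 97 of the 109 genes, and its SD over them was 0.11, against 0.65 for luminal minus basal. Over all probe sets these SDs were 0.089 and 0.49, so closeness to the adult mean was not particular to channel genes. All 7 genes that passed between the adult lineages had an embryonic mean between the luminal and basal means, as had 93 of the 109 channel genes (85.3%) and 89.3% of all genes. Scn7a had 5.91 on each of the 3 embryonic arrays, an identical value, as had 11 other channel genes. How many of all genes had 1 value on all 3 arrays was not counted. Embryonic replicates 1 and 3 shared a value for 20 of the 109 channel genes and for 17.8% of all probe sets. Against basal cells, Scn7a was the 1 channel gene that passed (0.917% of the set, against 0.0702% of all genes), at -2.55 ± 0.22 (SE, n = 3 and 2 arrays, limma adjusted p = 0.0414). The identical embryonic values of Scn7a enter that error. With embryonic replicates 1 and 2 averaged as 1 sample it did not pass, nor without embryonic replicate 1 or 2 or either basal array. Against luminal cells no channel gene passed in limma, where 0.0234% of all genes did. An unadjusted p under 0.05 was found for 12 channel genes (11.0%), against 12.05% of all genes. Cacna2d1 had 5.99, 6.54 and 6.54 on the embryonic arrays, and Cacna1c 6.06, 5.97 and 5.04. Kcnn4 had 8.38, 8.09 and 7.78, of which the last came from 813 cells. None of these 3 genes passed against either lineage.

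**Figure D5:**
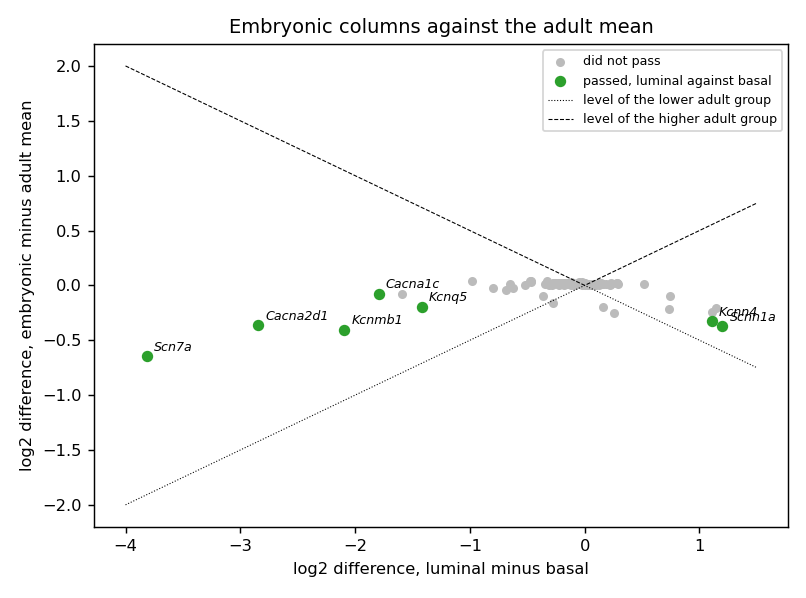
Embryonic minus adult mean log2 intensity of each channel gene against luminal minus basal, with lines for the level of the higher and the lower adult group. Most genes that did not pass lie near 0 on the vertical axis, the 7 that passed lie below it, and Scn7a is lowest, at -0.64.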

How the data were processed

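The authors deposited 1 table of probe set intensities on a linear scale for 7 arrays; RMA and affy are named in the submitters' processing notes, and settings, genome build and any adjustment between embryonic and adult arrays are not given in the sources used here. A log2 table had been planned for; these linear values were transformed to log2 first. Of 45141 rows, 4 without values and 104 controls were left out. The platform annotation gave 28895 probe sets 1 gene symbol, 551 several and 15587 none; the highest mean stood for each of 17096 genes. All 109 channel genes matched the gene table, and 58 had several of their 201 probe sets.

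Limma (version 3.58.1, R 4.3.3) fitted 3 group means over 7 arrays (4 residual degrees of freedom, prior 2.29), with Benjamini-Hochberg adjustment over all genes, and was tested on simulated data. A fold was given as a bound, against the background level, where both arrays of the dimmer group lay below it. Named were all channel genes that passed, up to 8 others above background with the largest differences and the brightest gene of each role; further genes named to fill out a family were chosen after their values were seen. Members and lists were chosen with earlier results of these data known. Figures used matplotlib 3.10.9 in Python 3.11.15. Alternatives covered probe sets, background, normalization, offset, variance prior, array weights, arrays fitted, fold minimum and replicate block.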

Additional observations from a re-analysis of the deposited data

How the results depend on the processing

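The 7 channel genes that passed between adult lineages numbered 5 with log2(intensity + 16), where Scnn1a and Kcnq5 were under 2-fold, 6 with array weights, 8 after quantile normalization, 9 in the 4 adult arrays alone (where Cacng7 and Kcnj11 joined) and 12 at a 1.5-fold minimum or with no fold minimum. They numbered 1 to 9 with an array left out. Over all genes the 939 became 583 with log2(intensity + 16), 605 with array weights, 1839 at a 1.5-fold minimum, 2223 with no fold minimum and 60 to 1178 with an array left out. Channel genes above background numbered 27 by the organ-restricted level in place of 69, an alternative chosen after seeing the data, and 5 of the 7 that passed lay above it (not Scnn1a or Kcnq5).

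For embryonic against basal cells the count of 1 became 0 when each probe set was tested on its own or embryonic replicates 1 and 2 were averaged, 2 (Scn7a and Cacna2d1) among genes above background, and 0 to 2 with an array left out. For embryonic against luminal cells the count of 0 became 2 (Scn7a and Cacna1c) with array weights, which rated embryonic replicate 2 at 8.24 and replicate 3 at 0.238, and 0 to 1 with an array left out. With the replicate number as a block, counts were 9 for luminal against basal, 2 (Scn7a and Cacna2d1) for embryonic against basal and 1 (Cacna1c) for embryonic against luminal. The numbers were not taken as pairing: luminal and basal deviations of equal number correlated at 0.117 over 11966 genes, and the other 2 pairs of groups at -0.090 and -0.086.

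Kcnh3, which did not pass, changed sign from -0.0049 to 0.362 with the median over probe sets, to 0.0092 with median centring and to values from -0.076 to 0.066 with an array left out. The cause of these changes was not tested.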
